A study of Mus musculus with 46 samples.

Results

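Messenger RNA of macrophages given the compound BRDK98 was compared directly with that of macrophages given the compound BRM014, both after 60 min of lipid A. The comparison rests on the 4 libraries whose labels name these compounds at that time, 2 for BRDK98 and 2 for BRM014, of 46 samples in the series. The cells are mouse bone marrow-derived macrophages (BMDMs), primary cells grown out of marrow, and lipid A is the part of bacterial lipopolysaccharide that the receptor TLR4 senses. The series asks how disturbing the SWI/SNF chromatin remodelling complex alters the macrophage response to such a stimulus. Further samples give the levels around the comparison: BRDK98 and BRM014 at 20 min of the same experiment, BRDK98 and BRM014 at 4 hr of experiment 1, the degrader ACBI1 at 60 min, and control cells labelled WT at 60 min and at 0 min of lipid A. Each of these groups holds 2 libraries. The labels give no dose, no vehicle, no time of exposure before lipid A, and no strain, age or sex. They also do not say whether replicates came from separate cultures or animals, so p-values measure only the spread between these samples, which may be technical.

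SWI/SNF complexes use the ATPase SMARCA4 or SMARCA2 to slide or evict nucleosomes, which opens promoters and enhancers to transcription factors. BRM014 inhibits the ATPase activity of both proteins. BRDK98 is a code name, and its structure and target are not described here. TLR4 signals through the adaptors MyD88 and TRIF to NF-kB, AP-1 and interferon regulatory factors. Immediate early genes answer within minutes with no new protein, primary inflammatory genes follow, and secondary genes often depend on new protein and on remodelling of their chromatin.

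All values are TPM, a share of the library per exon length. A difference is the log2 of BRDK98 over BRM014 on log2(TPM + 1), ± its standard error, and a positive value means higher in BRDK98. It comes from limma fitted to all 18 libraries of the experiment, with p adjusted over 11549 tested genes. A gene counts as higher or lower when its adjusted p is under 0.05 with the same sign on TPM as deposited and on TPM rescaled by median ratios. The 2 BRDK98 libraries held 17066265 and 18204586 exonic reads, and the 2 BRM014 libraries held 16686896 and 18769156. At that depth a 2 kb transcript with 3 reads would be listed at 0.096 to 0.1066 TPM, and values near this floor carry little information. Macrophage markers summed to 37300 and 39800 TPM in BRDK98, against 32800 and 33500 TPM in BRM014. Most of the sum was Lyz2 (31900 and 34300 against 27600 and 28400 TPM), which was not called. Of the 8 markers 1, Mertk, was called higher (0.46 ± 0.15), and its call was lost without BRM014 replicate 1 (0.15). Granulocyte markers summed to 349 and 421 against 444 and 381 TPM, dendritic cell markers to 10.9 and 10.9 against 12.5 and 11.1, lymphocyte markers to 15 and 13.3 against 11.4 and 12.3, and stromal and endothelial markers to 3.81 and 3.87 against 3.16 and 4.94. Cd3e, Cd8a, Klrb1c, Lum and Pdgfra were listed at 0 in all 4 libraries, as were the globin genes Hba-a1, Hba-a2, Hbb-bs and Hbb-bt. The list of erythroid and mast cell markers summed to 725 and 641 against 859 and 561 TPM, nearly all of it Pf4 (717 and 635 against 854 and 555 TPM), a platelet chemokine gene, and the other tested member, Ppbp, was called higher (0.35 ± 0.10). In bulk samples, fewer cells of a type and less RNA per cell cannot be told apart.

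Before the genes are described, 2 properties of these libraries need stating. The first is the direction of the labels. Across 11549 genes the difference at 60 min correlated with the difference between the same labels at 20 min at r = -0.28, and across 10865 genes with that at 4 hr at r = -0.25. These comparisons share no library, whereas the differences at 20 min and at 4 hr correlated with each other at r = 0.10. Leaving out each of the 4 libraries in turn gave -0.24 to -0.29 against 20 min and -0.20 to -0.27 against 4 hr. Genes are not independent replicates, and no p is attached. As a background, 14.4% of all tested genes were called higher and 12.3% lower at 60 min, and 23.2% and 22.1% at 4 hr. Of 65 genes called lower in BRDK98 at 20 min, 45 (69.2%) were called higher at 60 min and 7 (10.8%) lower. Of the 63 of these tested at 4 hr, 41 (65.1%) were lower there too and 6 (9.52%) higher. Of 44 genes called higher at 20 min, 29 (65.9%) were called lower at 60 min and 1 (2.27%) higher, and of the 37 of these tested at 4 hr, 8 (21.6%) were higher and 6 (16.2%) lower, so on that side 20 min and 4 hr did not share a direction. Taken over the controls of its time, BRM014 at 60 min correlated with BRDK98 at 20 min at r = 0.44 and with BRM014 at 20 min at 0.29. BRDK98 at 60 min correlated with BRDK98 at 20 min at 0.13 and with BRM014 at 20 min at 0.18. At 4 hr, over the only control library fitted there, BRM014 at 60 min had 0.40 with BRDK98 and 0.26 with BRM014. BRDK98 at 60 min had 0.24 with BRDK98 and 0.33 with BRM014 at 4 hr. Compounds of the same time share their controls. Whether the reversal belongs to the time point or to the labels of the 60 min libraries was not tested, and the groups are called here by their labels.

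The second property is a disagreement between the BRM014 replicates. They differed with an SD of 0.287 on the log2 scale (r = 0.979), against 0.14 for the BRDK98 pair (r = 0.995) and 0.126 to 0.184 in the other groups of the experiment. Replicate 1 minus replicate 2 of BRM014 fell with exon length (r = -0.46 with log2 length), from a median of 0.18 in the genes of up to 1570 bp to -0.49 in those of 4047 bp and more. The BRDK98 pair had r = -0.03. The difference between the compounds carried a length trend (r = 0.27, medians of -0.16 and 0.25 in these short and long genes), which was smaller without BRM014 replicate 1 (r = 0.08, medians of -0.06 and 0.01) and larger without BRM014 replicate 2 (r = 0.38, medians of -0.25 and 0.50). Among 2887 long genes 733 were called higher and 85 lower, and among 2888 short genes 127 and 575, beside 1667 and 1423 of all 11549 genes. With the length trend of each library removed these were 563 and 428 for long genes and 284 and 333 for short genes. Counts of pathway list members are followed by those without BRM014 replicate 1, and by those without BRM014 replicate 2 where that moves a count by over 1.5 times or makes a count of 0.

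**Figure D1:**
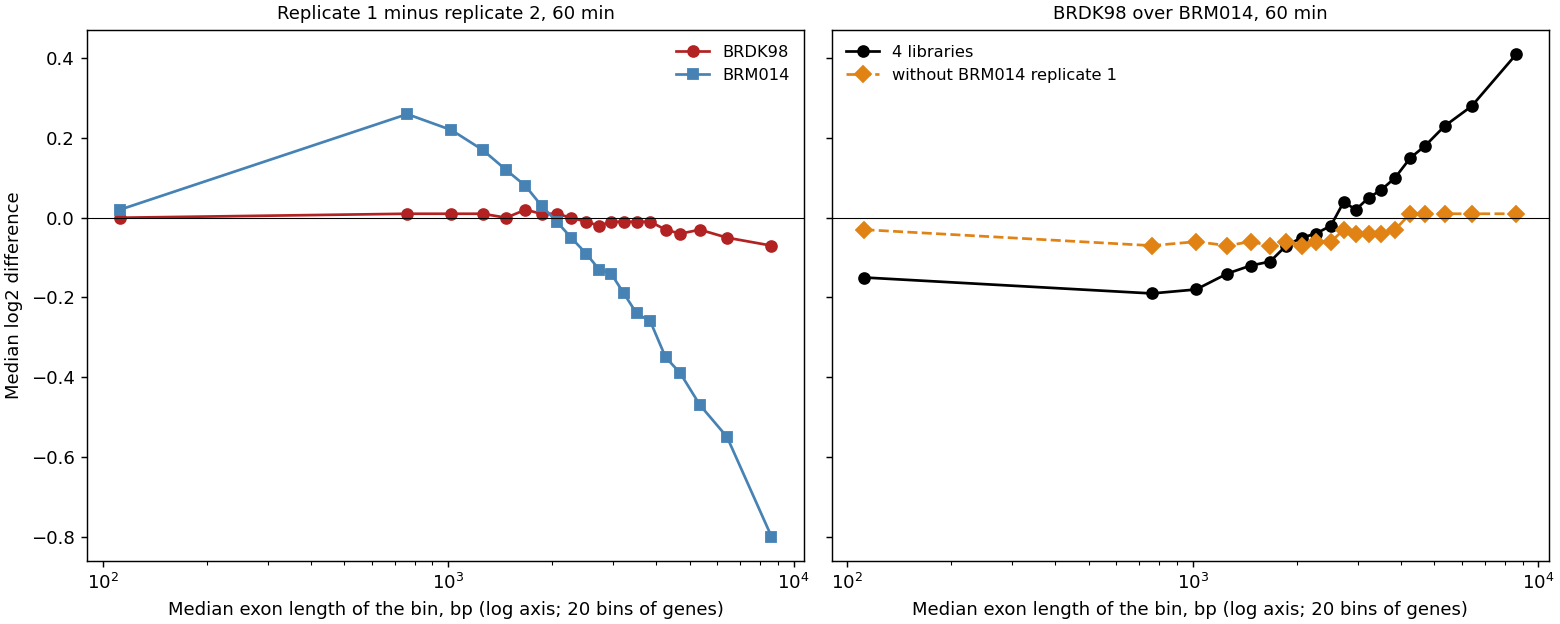
Median log2 difference in 20 bins of genes ordered by exon length (bp, log axis), between the replicates of each compound (left; BRDK98 circles, BRM014 squares) and between the compounds (right; 4 libraries in black, without BRM014 replicate 1 in orange). The BRM014 replicates part with length, to -0.80 in the bin of longest exons, and the BRDK98 replicates stay between -0.07 and 0.02.

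At 60 min 1667 of 11549 genes (14.4%) were higher and 1423 (12.3%) lower in BRDK98 than in BRM014, around a median difference of 0.02, and 341 and 211 of them differed by at least 1 on the log2 scale. Without BRM014 replicate 1 the counts were 1146 and 1179, without BRM014 replicate 2 they were 3246 and 2182, without BRDK98 replicate 1 they were 1069 and 866, and without BRDK98 replicate 2 they were 935 and 807. With the libraries of the 2 groups alone, which leaves little information on the spread, 361 genes were higher and 249 lower. The main fit shares 1 estimate of the spread per gene over all 9 groups. The BRM014 pair differed more than any other pair (SD 0.287), so standard errors and p-values of the main fit can be too small for this comparison. With library quality weights, which count that pair less, 710 genes were higher and 321 lower. The count of called genes thus depended on single libraries and on how the spread was estimated. The 12 highest and 12 lowest genes described next kept their call in each of 15 alternative settings other than a minimum change. They were picked from these same libraries for their large differences, so keeping the call is no independent support.

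**Figure D2:**
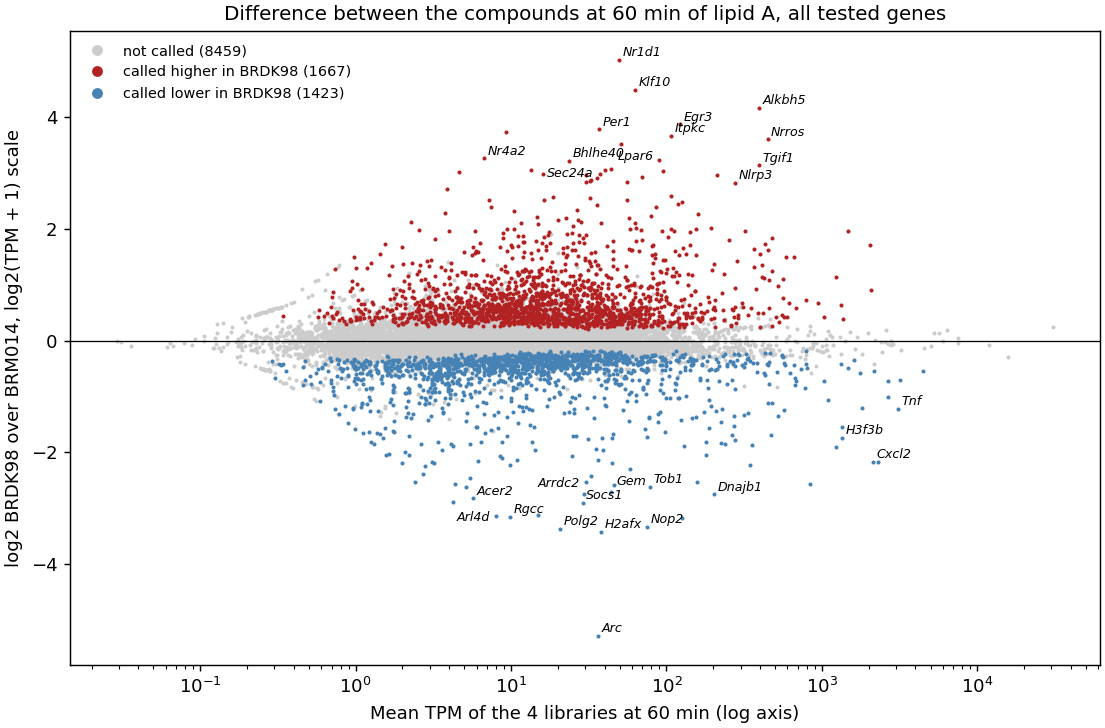
Log2 difference, BRDK98 over BRM014 (vertical axis), by mean TPM of the 4 libraries at 60 min (log axis), for each of 11549 tested genes. Red points mark the 1667 genes called higher in BRDK98, blue the 1423 called lower and grey the other 8459; the named genes run from Nr1d1 at 5.02 to Arc at -5.28.

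Transcriptional regulators filled much of the upper end. Nr1d1, which encodes the clock repressor REV-ERB alpha (chromosome 11, 98767932 to 98775377, mm10, minus strand), had 101 and 91.2 TPM in BRDK98 libraries, against 1.76 and 2.25 TPM in BRM014 libraries and 8.2 and 8.2 TPM in controls. Both BRDK98 libraries lay above both controls, and both BRM014 libraries beneath them. The difference was 5.02 ± 0.10 (adjusted p = 1.37e-12), a ratio of 47.9 between the mean TPM values. Nr1d1 overlaps Thra on the opposite strand, and reads were counted on both strands, so its level is less certain. The zinc finger gene Klf10, an early target of TGF-beta signalling, had 117 and 124 TPM in BRDK98, against 3.74 and 5.12 TPM in BRM014 and 18.5 and 20.6 TPM in controls (4.49 ± 0.10, adjusted p = 2.96e-12). The core clock gene Per1 had 72.3 and 66.8 TPM in BRDK98, against 3.59 and 4.71 in BRM014 and 15.5 and 15.4 in controls (3.78 ± 0.10, adjusted p = 1.82e-11). As with Nr1d1, the controls lay between the compounds. The clock-linked repressor gene Bhlhe40, which overlaps 0610040F04Rik, had 43.4 and 43.2 TPM against 3.4 and 4.16 TPM (3.22 ± 0.12). The homeobox repressor gene Tgif1 had 679 and 730 TPM in BRDK98 against 106 and 59.2 TPM in BRM014 (3.14 ± 0.18), with the BRM014 replicates far apart yet both well under the BRDK98 pair.

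Genes with roles outside transcription also stood at the upper end. Alkbh5, which encodes an RNA demethylase that removes N6-methyladenosine (chromosome 11, 60537683 to 60558512, plus strand), had 728 and 762 TPM in BRDK98, against 32.9 and 49.7 TPM in BRM014 and 34.5 and 40.3 TPM in controls. Here the BRM014 libraries lay with the controls, and the difference of 4.17 ± 0.14 (adjusted p = 9.8e-11) came with 4.29 for BRDK98 over control and 0.12 (adjusted p = 0.532) for BRM014 over control. Nrros, which encodes a protein that limits reactive oxygen species in phagocytes, had 850 and 803 TPM in BRDK98, against 68.9 and 65.7 in BRM014 and 263 and 281 in controls (3.60 ± 0.06). Itpkc, an inositol trisphosphate kinase gene, had 202 and 196 TPM against 14.8 and 14.7 TPM (3.66 ± 0.08). The lysophosphatidic acid receptor gene Lpar6 (3.07 ± 0.10), which overlaps Rb1, and the coat protein gene Sec24a (3.05 ± 0.19) complete the upper 12 together with Egr3 and Nr4a2, given among the immediate early genes.

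At the lower end stood genes that BRM014 raised over controls. Arc, an immediate early gene best known from neurons (chromosome 15, 74669081 to 74672570, minus strand), had 0.838 and 0.726 TPM in BRDK98, against 48 and 96.4 TPM in BRM014 and 1.12 and 1.47 TPM in controls. The BRDK98 libraries thus lay near the controls, and the difference was -5.28 ± 0.22 (adjusted p = 1.05e-09). H2afx, the gene of the histone variant that marks DNA breaks when phosphorylated, had 5.87 and 5.45 TPM in BRDK98, against 65.4 and 75.7 in BRM014 and 2.99 and 3.26 in controls (-3.42 ± 0.15). Polg2, which encodes the accessory subunit of the mitochondrial DNA polymerase (chromosome 11, 106768257 to 106779466, minus strand), had 2.66 and 3.02 TPM against 36.1 and 41.5 TPM, with controls at 2.92 and 3.28 TPM (-3.37 ± 0.11). Nop2, a ribosomal RNA methyltransferase gene (chromosome 6, 125131883 to 125144753, plus strand), had 12.5 and 12.8 TPM against 122 and 151 TPM (-3.33 ± 0.09). In these 4 genes the BRM014 libraries stood far above the BRDK98 libraries and the controls. Over controls, Polg2 was at -0.09 (adjusted p = 0.654) with BRDK98 and 3.28 with BRM014, and Nop2 at 0.59 and 3.92.

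In 11 of the lower 12 genes both BRM014 libraries lay above both controls. Arl4d, a small GTPase gene, had 1.08 and 0.633 TPM in BRDK98 and 13.6 and 16.9 TPM in BRM014 (-3.13 ± 0.14). Rgcc (-3.15 ± 0.25), the ceramidase gene Acer2 (-2.82 ± 0.25), the arrestin-domain gene Arrdc2 (-2.74 ± 0.12) and the antiproliferative gene Tob1 (-2.61 ± 0.22) followed. Gem, a GTPase gene induced by mitogens, was of another kind: it had 11.5 and 10.3 TPM in BRDK98, against 67.7 and 86.9 TPM in BRM014 and 73.3 and 81 TPM in controls (-2.71 ± 0.13). There BRDK98 was the group apart, at -2.71 over control, and BRM014 was at -0.01 (adjusted p = 0.981). Of all tested genes, BRDK98 raised 699 (6.05%) and lowered 639 (5.53%) over 60 min controls, and BRM014 raised 1938 (16.8%) and lowered 1553 (13.4%). Both sets of values use the same 2 control libraries, so they are given side by side only.

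**Figure D3:**
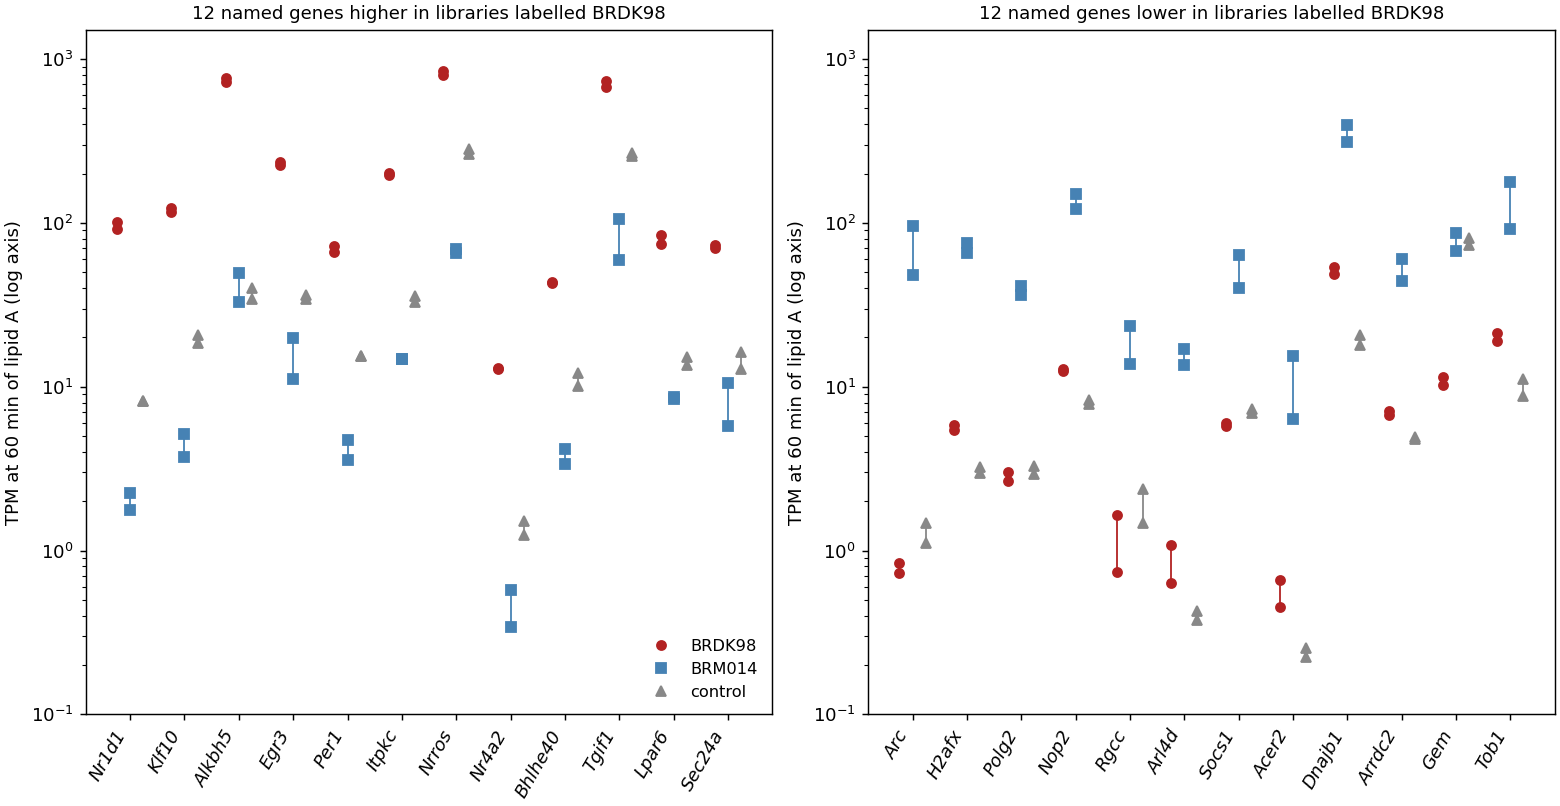
TPM at 60 min of lipid A (log axis) for the 12 highest (left) and 12 lowest (right) named genes; circles are BRDK98, squares BRM014 and triangles control libraries, with a line joining replicates. For Nr1d1 the controls (8.2 and 8.2 TPM) lie between the compounds, for Alkbh5 the controls (34.5 and 40.3 TPM) lie with BRM014, and for Arc (1.12 and 1.47 TPM) with BRDK98.

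Promoter sequences are shown for 2 genes from each end, those with the largest differences among the named genes that have a promoter in the table. They are RefSeq sequences on GRCm38.p6, from 250 bases before to 50 bases after the annotated start, read 5′ to 3′ on the strand of the gene. Capitals mark matches to the motifs searched on both strands: GGGANTTTC for NF-kB, TGANTCA for AP-1, TGACGTCA for CRE, TTTCNNTTT for ISRE, GAGGAAGT for PU.1 and TATAAA for TATA. Nr1d1 lies at chr11:98775328-98775627 on the minus strand, Alkbh5 at chr11:60537433-60537732 on the plus strand, Polg2 at chr11:106779488-106779787 on the minus strand and Nop2 at chr6:125131633-125131932 on the plus strand.
Nr1d1: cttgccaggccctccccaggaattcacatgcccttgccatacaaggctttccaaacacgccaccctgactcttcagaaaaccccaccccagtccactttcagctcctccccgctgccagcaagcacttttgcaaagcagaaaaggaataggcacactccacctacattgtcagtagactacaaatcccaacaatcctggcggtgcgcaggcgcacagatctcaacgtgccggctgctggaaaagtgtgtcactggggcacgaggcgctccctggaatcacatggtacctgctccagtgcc
Alkbh5: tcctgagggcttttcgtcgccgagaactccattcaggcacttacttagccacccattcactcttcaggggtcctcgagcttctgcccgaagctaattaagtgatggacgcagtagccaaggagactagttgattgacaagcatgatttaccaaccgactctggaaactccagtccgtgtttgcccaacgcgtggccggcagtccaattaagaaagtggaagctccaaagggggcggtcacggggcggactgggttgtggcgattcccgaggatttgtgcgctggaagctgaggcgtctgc
Polg2: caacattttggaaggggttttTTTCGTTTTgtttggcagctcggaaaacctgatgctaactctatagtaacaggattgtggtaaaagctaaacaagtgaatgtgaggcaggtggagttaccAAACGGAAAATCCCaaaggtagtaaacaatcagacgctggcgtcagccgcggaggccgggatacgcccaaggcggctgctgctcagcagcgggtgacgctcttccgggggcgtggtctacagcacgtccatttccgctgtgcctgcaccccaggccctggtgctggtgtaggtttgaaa
Nop2: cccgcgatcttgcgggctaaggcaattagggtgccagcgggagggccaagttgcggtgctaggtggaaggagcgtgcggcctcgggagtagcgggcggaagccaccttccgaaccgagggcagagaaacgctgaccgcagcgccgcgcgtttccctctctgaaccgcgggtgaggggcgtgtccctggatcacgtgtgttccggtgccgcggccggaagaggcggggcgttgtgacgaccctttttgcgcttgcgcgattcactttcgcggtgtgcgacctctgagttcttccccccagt
Polg2 held 1 NF-kB and 2 ISRE matches, 1 of which overlaps the NF-kB match, and the other 3 sequences held none of the 6 motifs. Of 18 of the 24 genes with a promoter in the table, 6 held any motif. With differences rounded to 2 decimals, 342 genes were called higher by at least 1 and 214 lower, and 261 and 146 of them have a promoter in the table. TATAAA was found in 26 of 146 promoters (17.8%) of those lower, in 14 of 261 (5.36%) of those higher and in 646 of 8997 (7.18%) of all tested genes with a promoter. The PU.1 letters were found in 2.05%, 6.9% and 3.7% of the same sets, and the NF-kB letters in 3.42%, 1.92% and 1.11%. These shares are descriptions of letters in a window, with no test.

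Listed immediate early genes split into members far higher and members moderately lower in BRDK98. TLR4 and growth factor signals switch such genes on within minutes. Arc, the immediate early gene at -5.28 above, is not on this list. Of 25 tested, 13 were higher and 8 lower, beside 14.4% and 12.3% of all genes, with a median of 0.31 against 0.02 for all genes (12 and 9 without BRM014 replicate 1). Egr3 (chromosome 14, 70077795 to 70082613, plus strand), a zinc finger factor gene, had 237 and 225 TPM in BRDK98, against 11.1 and 19.8 in BRM014 and 36.5 and 34.1 in controls (3.87 ± 0.19, adjusted p = 4.18e-09). The orphan nuclear receptor genes were higher as a family: Nr4a2 had 13.1 and 12.8 TPM against 0.344 and 0.573 TPM (3.26 ± 0.10), Nr4a3 had 7.89 and 10.1 against 0.187 and 0.276 (3.01 ± 0.12), and Nr4a1 had 688 and 627 against 191 and 204 (1.73 ± 0.10). In the AP-1 family, Fosl2 had 64.4 and 69.5 TPM in BRDK98 and 6.38 and 9.07 TPM in BRM014 (2.98 ± 0.13), and Fosb had 201 and 196 against 25.5 and 49 (2.45 ± 0.31). Other AP-1 genes went the opposite way. Jund had 127 and 120 TPM in BRDK98 and 387 and 461 TPM in BRM014 (-1.77 ± 0.17), Fos had 750 and 796 against 1100 and 1490 (-0.73 ± 0.13), and Jun had 520 and 511 against 680 and 977 (-0.66 ± 0.12). Both compounds left Fos and Jun above controls, at 262 and 267 TPM for Fos and 196 and 199 TPM for Jun. Egr1 (-0.72 ± 0.16), Ier5 (-1.83 ± 0.08) and Klf2 (-1.45 ± 0.09) were also lower, and Myc, with 21.6 and 16.9 TPM against 4.8 and 5.01 TPM, was higher (1.77 ± 0.14).

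Targets of cyclic AMP and the factor CREB, a list that shares 4 of its called genes with the immediate early list, had the highest median of the 29 pathway lists. Of 17 tested, 9 were higher and 3 lower (52.9% and 17.6%), with a median of 1.11 (9 and 4, and 0.59, without BRM014 replicate 1). Rgs2, which encodes a brake on G protein signalling (chromosome 1, 143999338 to 144004149, minus strand), had 354 and 394 TPM in BRDK98, against 45.2 and 48.4 in BRM014 and 25.1 and 23 in controls (2.97 ± 0.09). The phosphodiesterase gene Pde4b, whose product breaks down cyclic AMP, had 158 and 168 TPM against 46.9 and 41.1 TPM (1.86 ± 0.09), and Crem, a CREB-family gene, was higher by 1.25 ± 0.13. Gem and Areg, an EGF-family ligand gene (2 and 1.39 TPM against 4.73 and 6.52 TPM), were lower.

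Primary NF-kB genes had called members on both sides. Of 34 tested, 12 were higher and 17 lower (14 and 13 without BRM014 replicate 1), with a median of -0.30. Among the lower members were chemokine and cytokine genes. Cxcl2, a neutrophil chemokine gene (chromosome 5, 90903899 to 90905938, plus strand), had 780 and 776 TPM in BRDK98, against 3640 and 3350 in BRM014 and 4670 and 4910 in controls (-2.17 ± 0.08, adjusted p = 2.19e-10). Tnf (chromosome 17, 35199367 to 35202007, minus strand) had 1810 and 1900 TPM in BRDK98, against 4330 and 4330 in BRM014 and 5670 and 5680 in controls (-1.22 ± 0.08, adjusted p = 1.23e-07). For both genes the groups kept one order, with BRDK98 lowest and controls highest. Ccl4 had 822 and 827 TPM against 4370 and 3140 TPM (-2.17 ± 0.16), Ccl2 had 523 and 513 against 1740 and 2170 (-1.91 ± 0.08), and Cxcl1 had 20.2 and 17.8 against 114 and 82.2 (-2.29 ± 0.17). Il1b (-1.33 ± 0.13), which overlaps Il1bos, had 171 and 183 TPM in BRDK98 and 527 and 379 TPM in BRM014, both far under 3470 and 3310 TPM in controls. Outside the cytokines, Ptgs2, the inducible prostaglandin synthase gene, had 9.41 and 9 TPM against 38.9 and 73.8 TPM, with controls at 84.4 and 88 TPM (-2.42 ± 0.20).

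Among the higher members of the NF-kB list were genes of NF-kB factors and their inhibitors. Rel, an NF-kB subunit gene, had 91.4 and 100 TPM in BRDK98, against 13 and 19.6 in BRM014 and 102 and 105 in controls (2.51 ± 0.14). Birc3, which encodes a ubiquitin ligase of TNF receptor signalling, had 145 and 156 TPM against 39.4 and 36.5 TPM (1.96 ± 0.07). Both BRDK98 pairs lay near the control level, with controls of Birc3 at 144 and 143 TPM. Nfkbid (1.71 ± 0.19), Bcl3 (1.67 ± 0.12), Nfkbie (1.33 ± 0.07) and Tnfaip3 (1.12 ± 0.08), all of which encode inhibitors or modulators of NF-kB, were higher. Nfkbia, the gene of the main inhibitor, was lower (1800 and 1720 TPM against 2500 and 2660 TPM, -0.55 ± 0.06). Il23a, a cytokine subunit gene, was higher (18.5 and 20.1 TPM against 4.84 and 4.31 TPM, 1.87 ± 0.10).

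Of 24 secondary inflammatory genes tested, 1 (4.17%) was higher and 6 (25%) lower, beside 14.4% and 12.3% of all genes, with a median of -0.17 (0 and 5 without either BRM014 replicate). Il6 (chromosome 5, 30013114 to 30019975, plus strand) had 3.57 and 4.09 TPM in BRDK98, against 4.23 and 5.31 in BRM014 and 55.3 and 41.6 in controls, and the compounds did not pass the test (-0.25 ± 0.14, adjusted p = 0.175, 95% interval -0.55 to 0.04). Il12b had 0.171 and 0.296 TPM in BRDK98, against 1.32 and 1.05 in BRM014 and 42 and 37.9 in controls (-0.83 ± 0.10), values so near the floor that the 1 added to TPM shrinks the difference. The itaconate synthase gene Acod1 had 25.4 and 34.6 TPM against 44.2 and 56 TPM, with controls at 843 and 682 TPM (-0.73 ± 0.18). Its call was lost without BRM014 replicate 2, without BRDK98 replicate 1, with the 2 groups alone and with library quality weights. Ccl5 had 70.9 and 86 TPM against 166 and 155 TPM (-1.03 ± 0.15). Il10, an anti-inflammatory cytokine gene, was the member called higher (0.88 ± 0.21, adjusted p = 0.00801). It had 113 and 140 TPM in BRDK98 against 70.3 and 65.2 TPM in BRM014 and 644 and 567 TPM in controls. Its call was lost without either BRM014 replicate, without BRDK98 replicate 2 and with library quality weights. Nos2 was at most 0.068 TPM in all 4 libraries, under the floor, and no fold is given.

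Interferon and interferon response genes leaned lower in BRDK98. Of 40 tested, 3 were higher and 16 lower (2 and 14 without BRM014 replicate 1, 4 and 10 without BRM014 replicate 2), with a median of -0.54. The antiviral GTPase gene Mx1 had 58.7 and 76.7 TPM in BRDK98, against 222 and 357 in BRM014 and 145 and 93 in controls (-2.05 ± 0.29), with wide replicate gaps in all 3 groups. Mx2 had 38 and 48.2 TPM against 98.9 and 125 TPM (-1.36 ± 0.21). Irf7, which encodes a factor that amplifies interferon, had 137 and 169 TPM against 371 and 401 TPM (-1.34 ± 0.21), and Cmpk2 was lower by -1.39 ± 0.30. The interferon gene Ifnb1 had 79.4 and 102 TPM in BRDK98, against 153 and 135 in BRM014 and 988 and 688 in controls (-0.67 ± 0.15, adjusted p = 0.00457). Its call was lost without BRM014 replicate 1 and without BRDK98 replicate 1. The call was also lost with a pseudocount of 0.1, with the 2 groups alone and with library quality weights. Irf1, an NF-kB and interferon target, was higher instead, at 1670 and 1750 TPM against 774 and 773 TPM and 1090 and 990 TPM in controls (1.14 ± 0.08).

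TLR4 signalling genes, the receptors, adaptors and kinases that pass the signal on, contributed no member to the lower side. Of 30 tested, 16 were higher and 0 lower with a median of 0.34, and without BRM014 replicate 1 these counts were 11 and 2, with a median of 0.19, and without BRM014 replicate 2 they were 22 and 2. Ticam1, the gene of the adaptor TRIF, had 58.7 and 52.4 TPM in BRDK98, against 9.08 and 8.13 in BRM014 and 43.7 and 47 in controls (2.56 ± 0.10). Myd88, the gene of the other main adaptor, had 223 and 244 TPM against 82.6 and 76.4 TPM and 138 and 123 TPM in controls (1.54 ± 0.07). In both genes BRM014 was beneath the controls. Tlr2 (160 and 166 TPM against 75.7 and 63.1 TPM, 1.23 ± 0.09) and Tlr6 (10.8 and 9.58 TPM against 4.39 and 4.36 TPM, 1.05 ± 0.09), which form a receptor for bacterial lipopeptides, were higher. Tlr4 itself had 14.8 and 17.2 TPM against 6.54 and 10 TPM (0.89 ± 0.15). Calls of Map3k8, Tab2, Tbk1, Ikbke, Tlr1 and Ripk1, all at 0.52 or less, were lost without BRM014 replicate 1.

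Inflammasome and chemotactic receptor genes were also more often higher than lower. Of 17 inflammasome and pyroptosis genes, 8 were higher and 0 lower (5 and 0 without BRM014 replicate 1, 9 and 2 without BRM014 replicate 2), with a median of 0.30. Nlrp3, the gene of an inflammasome sensor, had 496 and 475 TPM in BRDK98, against 72.8 and 63.3 in BRM014 and 543 and 585 in controls (2.82 ± 0.08, adjusted p = 4.62e-11). Mefv had 9.38 and 11.3 TPM against 2.06 and 2.68 TPM (1.75 ± 0.14), and Il1rn, the gene of the interleukin 1 receptor antagonist, had 52.4 and 51.4 against 19.8 and 19.4 (1.36 ± 0.07). Of 28 chemotactic and metabolite receptor genes, 14 were higher and 2 lower (12 and 2 without BRM014 replicate 1), with a median of 0.33. The fatty acid receptor gene Gpr84 had 66.2 and 61.3 TPM in BRDK98, against 8.04 and 7.16 in BRM014 and 71.1 and 73.1 in controls (2.91 ± 0.09), and the chemokine receptor gene Ccr1 had 134 and 131 against 27.2 and 27.7 (2.23 ± 0.08). BRDK98 lay at the control level for Nlrp3 and Gpr84 while BRM014 lay far under it. C5ar2, the gene of a second C5a receptor, was lower (3.09 and 3.55 TPM against 13.9 and 23.2 TPM, -2.14 ± 0.16).

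Feedback inhibitors of inflammatory signalling counted 13 higher and 5 lower of 28, with a median of 0.34 (12 and 6, and 0.13, without BRM014 replicate 1). Socs1, which encodes an inhibitor of JAK kinases, was lower, at 5.79 and 6.02 TPM in BRDK98 against 40.3 and 63.4 TPM in BRM014 and 7.28 and 6.95 TPM in controls (-2.90 ± 0.20). Zfp36l1, which encodes a protein that speeds mRNA decay, had 752 and 732 TPM against 173 and 246 TPM (1.84 ± 0.13), and Trib1 was higher by 1.03 ± 0.09. Errfi1, an inhibitor gene of EGF receptor signalling, had 124 and 120 TPM against 319 and 492 TPM (-1.69 ± 0.17). Of 27 colony-stimulating factor, growth factor and receptor genes, 11 were higher and 6 lower (9 and 5 without BRM014 replicate 1). Osm had 43.6 and 35.4 TPM against 13.9 and 10.4 TPM (1.63 ± 0.13), and the angiogenic factor gene Vegfa had 600 and 581 against 182 and 294 (1.35 ± 0.16). The EGF-family gene Hbegf had 5.4 and 4.99 TPM against 19 and 28 TPM (-1.96 ± 0.21), and Gdf15 had 253 and 197 against 723 and 714 (-1.68 ± 0.16).

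**Figure D4:**
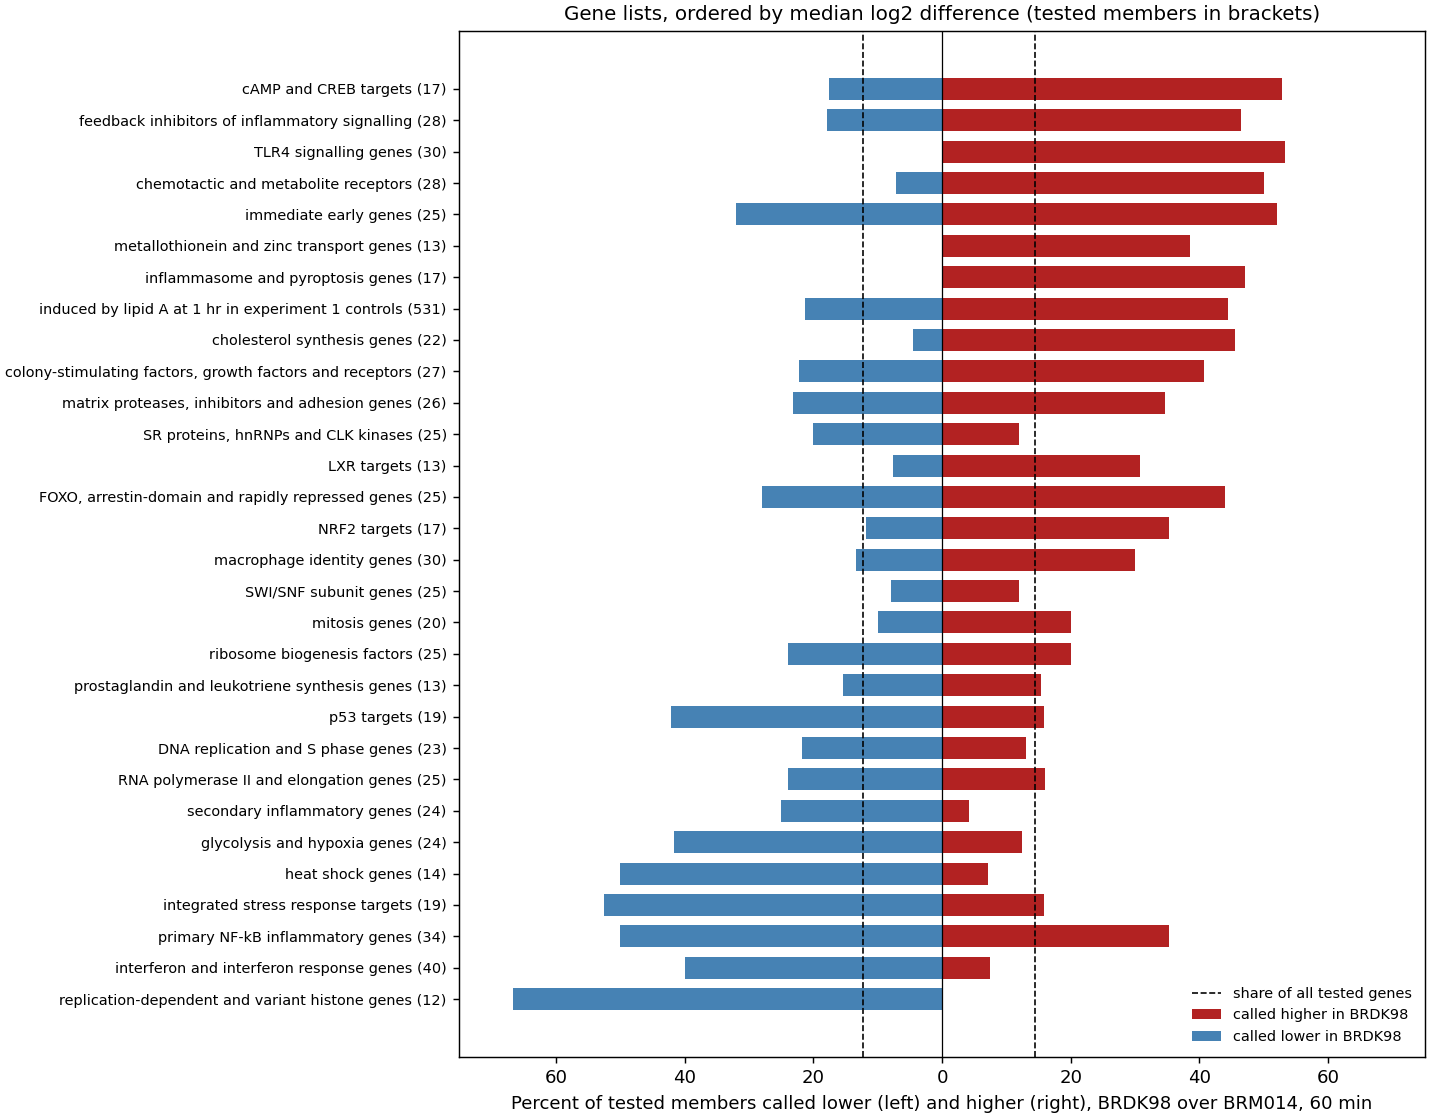
Percent of tested members called higher in BRDK98 (right, red) and lower (left, blue) at 60 min for the 29 pathway lists and the lipid A-induced set, from the highest median difference at the top to the lowest at the bottom, with the number of tested members in brackets. Dashed lines mark the shares of all tested genes, 14.4% higher and 12.3% lower; TLR4 signalling genes reach 53.3% higher and 0% lower, and histone genes 0% and 66.7%.

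Stress pathways differed in direction. Of 19 targets of the integrated stress response, 3 were higher and 10 lower (2 and 9 without BRM014 replicate 1), with a median of -0.29: Nupr1 had 34.2 and 32.9 TPM in BRDK98 against 140 and 92 TPM in BRM014 (-1.73 ± 0.17), and Sesn2 had 12.7 and 13.7 against 26 and 42.6 (-1.28 ± 0.15). Of 14 heat shock genes, 1 was higher and 7 lower (1 and 8 without BRM014 replicate 1, 3 and 6 without BRM014 replicate 2). The cochaperone gene Dnajb1 had 48.7 and 54.1 TPM in BRDK98, against 310 and 395 in BRM014 and 18.1 and 20.8 in controls (-2.75 ± 0.10), so both compounds raised it over control and BRM014 raised it further. Hspa1b (5.04 and 5.69 TPM against 16.8 and 27.1 TPM) was lower too, but it shares nearly all of its sequence with Hspa1a and its count is uncertain. Dnajb4 was the member called higher (138 and 151 TPM against 25.7 and 27.6 TPM, 2.40 ± 0.11). Of 19 p53 targets, 3 were higher and 8 lower (2 and 7 without BRM014 replicate 1, 6 and 9 without BRM014 replicate 2), the proapoptotic genes Bbc3 (18.1 and 16.6 TPM against 3.62 and 3.61 TPM, 1.99 ± 0.11) and Pmaip1 (19.3 and 20.4 against 66.6 and 72.2, -1.75 ± 0.10) lying on opposite sides. Of 17 NRF2 targets, 6 were higher and 2 lower (7 and 3 without BRM014 replicate 1). The antioxidant gene Srxn1 had 389 and 400 TPM in BRDK98, against 104 and 122 in BRM014 and 57.2 and 70.5 in controls (1.80 ± 0.09), and the autophagy receptor gene Sqstm1 had 3200 and 3020 against 1010 and 881 (1.72 ± 0.07). Hmox1, the heme oxygenase gene, went the other way with 699 and 676 TPM against 1860 and 2150 TPM (-1.54 ± 0.09).

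Among metabolic lists, cholesterol synthesis and uptake genes were more often higher than lower, and glycolysis genes more often lower. Of 22 cholesterol genes, 10 were higher and 1 lower (8 and 0 without BRM014 replicate 1, 11 and 3 without BRM014 replicate 2), with a median of 0.22. Stard4, which encodes a sterol transfer protein, had 12.9 and 14 TPM in BRDK98, against 2.81 and 4.4 in BRM014 and 9.79 and 10.3 in controls (1.67 ± 0.14), and the synthase gene Hmgcs1 had 36.7 and 41.1 against 14.1 and 19.6 (1.17 ± 0.13). In both genes the groups did not overlap, which with 2 libraries a group carries little information by itself. Of 24 glycolysis and hypoxia genes, 3 were higher and 10 lower (3 and 8 without BRM014 replicate 1), with a median of -0.20. The glucose transporter gene Slc2a1 had 16.3 and 17.7 TPM against 53.7 and 65.9 TPM (-1.75 ± 0.09), while the kinase genes Hk2 (1.25 ± 0.13) and Pfkfb3 (1.19 ± 0.17) were higher. Of 13 metallothionein and zinc transport genes 5 were higher and 0 lower (5 and 1 without BRM014 replicate 1), led by Mt1 with 2410 and 2300 TPM against 714 and 501 TPM and 219 and 252 TPM in controls (1.97 ± 0.14).

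Histone genes had the lowest median of the pathway lists, -0.73, with 0 higher and 8 lower of 12 (1 and 7 without BRM014 replicate 1). H3f3b, a gene of the replacement histone H3.3 (chromosome 11, 116021961 to 116024504, minus strand), had 586 and 644 TPM in BRDK98, against 2080 and 2040 in BRM014 and 791 and 806 in controls (-1.74 ± 0.07). Hist1h1c, a linker histone gene, had 48.2 and 45.9 TPM against 134 and 164 TPM (-1.63 ± 0.14), and Hist1h2bc had 41 and 40.3 against 90.2 and 84.1 (-1.08 ± 0.08). Histone genes are short, and with the length trend of each library removed the counts were 1 higher and 5 lower. The lists given next lay nearer the shares of all genes, 14.4% higher and 12.3% lower. Their shares were 12% and 20% for SR protein, hnRNP and CLK genes, and 16% and 24% for polymerase II genes. Ribosome biogenesis factors had 20% and 24%, and replication genes 13% and 21.7%. Of 25 SR protein, hnRNP and CLK kinase genes, 3 were higher and 5 lower (4 and 5 without BRM014 replicate 1). The splicing factor genes Hnrnph1 (73.5 and 79.9 TPM against 206 and 360 TPM, -1.82 ± 0.20), Srsf7 (-1.58 ± 0.11) and Srsf2 (97.3 and 92.4 against 242 and 326, -1.56 ± 0.11) were lower. Of 25 RNA polymerase II and elongation genes, 4 were higher and 6 lower (4 and 6 without BRM014 replicate 1, 6 and 11 without BRM014 replicate 2). Ccnt1, the cyclin gene of the elongation factor P-TEFb, had 54.1 and 60 TPM in BRDK98 against 5.17 and 9.46 TPM in BRM014 (2.85 ± 0.18) and overlaps 9330020H09Rik. Hexim1, which encodes an inhibitor of P-TEFb, had 65.2 and 68.2 TPM against 163 and 198 TPM (-1.42 ± 0.09). Polr2a, the gene of the largest polymerase subunit, was at -0.76 ± 0.25, with -1.31 without BRM014 replicate 1 and -0.20, its call lost, without BRM014 replicate 2. The call of Polr2a was also lost without either BRDK98 replicate, with no filter, with the 2 groups alone and with library quality weights. Of 25 ribosome biogenesis factors, 5 were higher and 6 lower (5 and 3 without BRM014 replicate 1, 8 and 6 without BRM014 replicate 2), and apart from Nop2 the snoRNP genes Nop58 (40.6 and 45.1 TPM against 12 and 11.9 TPM, 1.76 ± 0.09) and Nop56 (13.4 and 13.8 against 43 and 54.9, -1.76 ± 0.12) lay on opposite sides, both of which hold snoRNA genes. Of 23 replication and S phase genes, 3 were higher and 5 lower (3 and 6 without BRM014 replicate 1), with Pcna at 533 and 575 TPM against 157 and 198 TPM (1.64 ± 0.09).

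Of 25 SWI/SNF subunit genes tested, 3 (12%) were higher and 2 (8%) lower, near the shares of all genes (1 and 2 without BRM014 replicate 1, 10 and 3 without BRM014 replicate 2), with a median of 0.03. Smarca4 had 25.6 and 25.5 TPM in BRDK98, against 19.3 and 25.8 in BRM014 and 23.1 and 24.4 in controls (0.19 ± 0.11, adjusted p = 0.23, 95% interval -0.06 to 0.43), with -0.01 without BRM014 replicate 1 and 0.38, then called, without BRM014 replicate 2. Smarca2 had 10.1 and 10.2 TPM against 10.4 and 9.09 TPM (0.05 ± 0.11, adjusted p = 0.729, 95% interval -0.18 to 0.29), and it overlaps 4931403E22Rik. Pbrm1 had 13.7 and 16 TPM against 6.64 and 13.7 TPM (0.58 ± 0.22, adjusted p = 0.0655, 95% interval 0.10 to 1.05), with 0.11 without BRM014 replicate 1 and 1.05, then called, without BRM014 replicate 2. Arid1a had 22.9 and 21.8 TPM against 7.66 and 19 TPM and was called higher (0.83 ± 0.26, adjusted p = 0.0347). Without BRM014 replicate 1 its difference was 0.22 and the call was lost, and without BRM014 replicate 2 it was 1.43. The call was also lost without BRDK98 replicate 1 (0.79), without BRDK98 replicate 2 (0.86), with no filter and with the 2 groups alone. For Smarca4, Pbrm1 and Arid1a, with exon lengths of 6328, 7748 and 7397 bp, the low value is BRM014 replicate 1. Actb, whose product is shared with the cytoskeleton, was the clearest member, at 1780 and 1760 TPM in BRDK98 against 3600 and 3480 TPM in BRM014 and 1930 and 1760 TPM in controls (adjusted p = 2.91e-08). Macrophage identity genes counted 9 higher and 4 lower of 30 (4 and 5 without BRM014 replicate 1, 13 and 9 without BRM014 replicate 2). The transcription factor gene Cebpd, which overlaps Spidr, had 10.9 and 11.4 TPM in BRDK98, against 31.6 and 46.5 in BRM014 and 9.85 and 8.06 in controls (-1.70 ± 0.19).

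Lipid A-induced genes as a whole were more often higher in BRDK98. Lipid A raised 9.9% and lowered 19.2% of tested genes at 1 hr in controls of experiment 1. Of 531 genes raised there by at least 1 on the log2 scale and tested at 60 min, 236 (44.4%) were higher and 113 (21.3%) lower, with a median of 0.25; without BRM014 replicate 1 these were 217 and 114, with a median of 0.17. Of 1203 genes that lipid A lowered, 132 (11%) were higher and 228 (19%) lower, with a median of -0.06. The counts were 102 and 201 without BRM014 replicate 1 (median -0.12), and 266 and 244 without BRM014 replicate 2 (median 0.00), where the lean to lower was lost. At 20 min the induced set counted 6 higher and 38 lower, and at 4 hr 123 higher and 291 lower of 566 tested, so its counts leaned the opposite way at both other times.

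The same labels were compared at the other times. At 20 min 44 genes (0.381%) were higher and 65 (0.563%) lower, counts that ranged from 13 to 18 and from 33 to 44 when single libraries of that time were left out. Rgs2 was 2.97 at 60 min, -1.52 at 20 min and -1.58 at 4 hr. Klf10 was 4.49 at 60 min, -0.78 at 20 min and -1.86 at 4 hr, and Nr1d1 was 5.02, -0.62 and -1.12 at these times, all called. Among genes lower at 60 min, Socs1 was -2.90 at 60 min, 1.23 at 20 min and 1.99 at 4 hr, and Hist1h1c was -1.63, 1.58 and 2.61. Histone genes as a list counted 6 higher and 0 lower at 20 min and 7 higher and 0 lower at 4 hr, against 0 and 8 at 60 min. Cholesterol genes counted 0 higher and 19 lower of 23 at 4 hr, and NRF2 targets 0 and 14 of 17. At 4 hr, in experiment 1, 2673 genes (23.2%) were higher and 2544 (22.1%) lower. Of the 1605 genes called higher at 60 min and tested at 4 hr, 284 (17.7%) were higher and 731 (45.5%) lower there. Of the 1335 called lower at 60 min and tested at 4 hr, 399 (29.9%) were higher and 211 (15.8%) lower.

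Single genes differed in direction between 60 min and 4 hr. Gpr84 had 4.32 and 3.99 TPM in BRDK98 and 121 and 126 TPM in BRM014 at 4 hr (-4.59), the opposite order to 60 min. Nlrp3 had 32.2 and 34.1 TPM against 391 and 421 TPM at 4 hr (-3.58), and Srxn1 had 14.9 and 18.5 against 413 and 437 (-4.60). Gem, lower at 60 min, had 10.5 and 8.89 TPM against 0.45 and 1.23 TPM at 4 hr (2.57). Alkbh5 was 4.17 at 60 min and -2.29 at 4 hr, with 0.04 at 20 min. Other genes kept their side. Hmox1 had 90.2 and 94.7 TPM against 730 and 707 TPM at 4 hr (-2.94), as it was lower at 60 min, and Rel was 0.55 at 4 hr and 2.51 at 60 min. TPM of the 2 experiments were normalized apart, so levels are compared only within each.

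**Figure D5:**
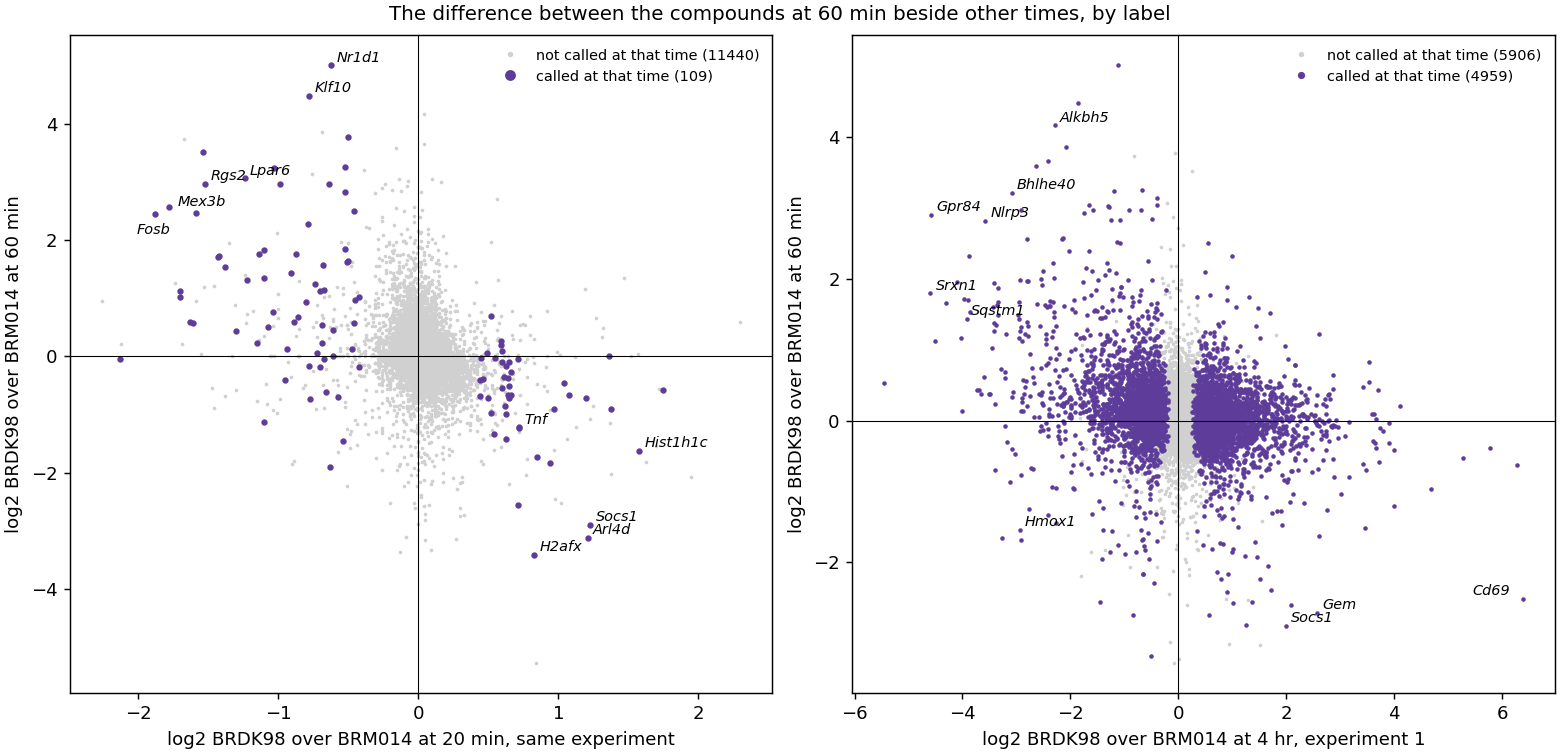
Log2 difference, BRDK98 over BRM014, at 60 min (vertical axes) against the same labelled difference at 20 min (left, 11549 genes) and at 4 hr of experiment 1 (right, 10865 genes), each point a gene, purple where called at the earlier or later time. Called genes lie mostly in the upper left and lower right at 20 min, with r = -0.28, and r is -0.25 at 4 hr.

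The change of the difference between the times was tested in the same fit. From 20 to 60 min, 966 genes (8.36%) changed towards BRDK98 and 977 (8.46%) towards BRM014. Without 60 min BRM014 replicate 2 these counts were 2836 and 1943, without 20 min BRDK98 replicate 1 they were 620 and 637, and without 20 min BRM014 replicate 2 the second was 637. Mex3b, which encodes an RNA-binding protein, had 31.4 and 33.9 TPM in BRDK98, against 3.32 and 6.36 in BRM014 and 17.2 and 16 in controls at 60 min (2.57 ± 0.18), and its difference was -1.78 at 20 min. For Alkbh5 the authors' deposited table lists 4.23 for BRDK98 and 0.08 for BRM014 at 60 min, for Nr1d1 3.46 and -2.09, and for Klf10 2.53 and -2.21. For Arc the authors' deposited table lists -0.81 (adjusted p = 0.236) for BRDK98 and 5.73 for BRM014, and for Gem -2.91 and -0.06 (adjusted p = 0.93).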

How the data were processed

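Poly-A RNA of bone marrow-derived macrophages was sequenced as 50 bp single-end reads with a stranded kit, per the labels' protocols. The deposited tables hold TPM per gene, made with HOMER over exons with 1 gene model per gene and both strands counted, per the file headers, so reads of overlapping genes are not separated. The submitters' processing notes name STAR 2.5.3a, HOMER, DESeq2 and the build mm10. The authors' deposited table of comparisons gives log2 fold changes and adjusted p-values of each compound over control. TPM are shares of a library, and the 1 per-sample column that matched no sample was not used.

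A gene was tested when 2 or more libraries had a TPM of 1 or higher, which held for 11549 of 25124 listed genes, and log2(TPM + 1) was fitted with limma 3.58.1 in R 4.3.3, with a mean trend and robust variances, over the 9 groups and 18 libraries of experiment 4, which leave 9 residual degrees of freedom. Experiment 1 was fitted in its own table (11 libraries, 11531 genes). The adjustment was Benjamini-Hochberg over all tested genes, and the 95% intervals are those of the fit. A call needs an adjusted p under 0.05 and the same sign on TPM as deposited and on median-ratio scaled TPM. Exonic reads per library were recovered from the steps of low TPM values multiplied by exon length, with low values whole to within 0.1 read for nearly all genes. Floors cover counting error only. One pair of compounds was compared at 60 min, at doses that the labels used here do not state.

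The text names the 12 highest and 12 lowest called genes with a mean of at least 10 TPM in the higher group and no overlap of the groups, 10 inflammatory reference genes, 4 remodeller genes, up to 4 called members of each gene list with at least 5 TPM, and the 5 highest and 5 lowest changes between 20 and 60 min. Other list members were named after their values were seen. Some members are not reported here. The 29 pathway and 6 marker lists and the members were chosen with earlier results of these data known. Alternatives were the pseudocount, the filter, the scaling, the trend, a replicate block, the groups alone, leaving out each library, voom on recovered reads and a minimum change. Library quality weights and removal of each library's length trend were added after seeing the data. Scripts were tested on simulated data with equal spread in every library and no length trend. That test does not cover the uneven BRM014 pair at 60 min. Figures were drawn with matplotlib 3.10.9 and tables joined with pandas 2.3.3 in Python 3.11.15.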

Additional observations from a re-analysis of the deposited data

Results flagged for a closer look

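The results flagged are those in which the difference between BRDK98 and BRM014 at 60 min departed from that at 20 min by a test of the change itself, an interaction in the limma fit. By that test 966 genes changed towards BRDK98 and 977 towards BRM014. The change was 5.64 ± 0.14 for Nr1d1, 5.27 ± 0.15 for Klf10, 4.56 ± 0.27 for Egr3, 4.49 ± 0.12 for Rgs2 and 4.35 ± 0.25 for Mex3b, on the log2 scale with its standard error. Of these, Klf10 had a difference of 4.49 at 60 min and -0.78 at 20 min, and Rgs2 of 2.97 and -1.52. In the other direction the change was -6.12 ± 0.31 for Arc, -4.34 ± 0.19 for Arl4d, -4.25 ± 0.21 for H2afx, -4.13 ± 0.28 for Socs1 and -4.01 ± 0.75 for Snord12, a small nucleolar RNA gene that overlaps Zfas1. The 60 min difference of Snord12 lost its call without BRDK98 replicate 2, without either BRM014 replicate and with library quality weights. Socs1 and H2afx were higher in BRDK98 at 20 min, by 1.23 and 0.83, and lower at 60 min, by -2.90 and -3.42. The part that the labels of the 60 min libraries play in these changes was not tested. Groups of 2 libraries are too small for a check of single outlying libraries.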

How the results depend on the processing

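For the 137 tested named genes, 2071 values kept their side of the threshold, 115 lost it, 4 gained it and 0 of those called reversed; of genes not called, Smarca4 (0.19) was at -0.01 without BRM014 replicate 1 and -0.11 with the length trend removed, and Smarca2 (0.05) at -0.04 without BRM014 replicate 2. Of 132 called genes 98 kept their call in all 15 alternatives other than a minimum change of 1, 28 lost it with the groups of that time alone and 9 without BRM014 replicate 1. Counts depended more on the setting. With a minimum change of 1, genes called higher and lower were 341 and 211 at 60 min, 9 and 24 at 20 min, 377 and 259 for the change between times, and 74 and 65 among list members, against 180 and 146 list members in all. With the groups of that time alone they were 361 and 249, 78 and 102, 501 and 454, and 80 and 71. With library quality weights, in which the BRM014 pair at 60 min had a weight of 0.151 against 0.656 to 1.82 elsewhere, they were 710 and 321 at 60 min and 101 and 103 at 20 min, 427 genes changed towards BRM014, and 78 list members were lower. A pseudocount of 0.1 left 28 genes higher at 20 min, and removal of the length trend gave 70. Leaving out single libraries gave 935 to 3246 higher and 807 to 2182 lower at 60 min, 13 to 18 higher and 33 to 44 lower at 20 min, 620 to 2836 and 637 to 1943 for the change, and 136 to 223 higher and 116 to 165 lower list members. The cause was not tested. Counts at 4 hr stayed within 1.5 times in each alternative run. With a replicate block 1704 and 1414 genes were called at 60 min, and no count moved by over 1.5 times. Same-numbered BRDK98 and BRM014 libraries at 60 min deviated together with r = 0.14, and over 36 pairs of groups r ran from -0.24 to 0.24 with 11 over 0.1. These weak correlations gave no clear sign of pairing by number but cannot exclude it, and the labels do not state it. Count models (edgeR, DESeq2) were planned for counts and were not run, since the deposited values are TPM. Near the floor of 0.096 to 0.1066 TPM no difference is detectable at this depth.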

Other observations

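Genes held down by growth signals, a list of FOXO targets, arrestin-domain genes and rapidly repressed genes, had members on both sides. Of 25 tested, 11 were higher and 7 lower (11 and 10 without BRM014 replicate 1), beside 14.4% and 12.3% of all genes. Cited2, a transcriptional coregulator gene, had 241 and 240 TPM in BRDK98, against 1220 and 1660 in BRM014 and 342 and 302 in controls (-2.56 ± 0.11, adjusted p = 1.42e-09). The inhibitor-of-DNA-binding genes fell on both sides, with Id1 at -2.00 and Id2 at 1.32, where Id2 had 525 and 524 TPM in BRDK98 against 200 and 220 TPM in BRM014. Of 13 LXR targets, 4 were higher and 1 lower (3 and 1 without BRM014 replicate 1, 5 and 3 without BRM014 replicate 2). The cholesterol exporter gene Abca1 had 161 and 163 TPM in BRDK98 against 46.6 and 110 TPM in BRM014 (1.17, with 0.56 without BRM014 replicate 1 and 1.78 without BRM014 replicate 2), and Mylip, which encodes a ubiquitin ligase, was at -1.32. Of 26 matrix protease, inhibitor and adhesion genes, 9 were higher and 6 lower (9 and 4 without BRM014 replicate 1). Plau, the gene of the protease urokinase, was among the higher members, at 1.55. The prostaglandin and mitosis lists, given next, lay near the shares of all genes, 14.4% higher and 12.3% lower. Their shares were 15.4% and 15.4% for prostaglandin genes, and 20% and 10% for mitosis genes. Of 13 prostaglandin and leukotriene genes 2 were higher and 2 lower (the same counts without BRM014 replicate 1), and of 20 mitosis genes 4 were higher and 2 lower (1 and 1 without BRM014 replicate 1, 7 and 2 without BRM014 replicate 2).

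Cells given ACBI1, which degrades SMARCA2, SMARCA4 and PBRM1, were measured at 60 min too. Alkbh5 had 29 and 28.6 TPM with ACBI1, against 34.5 and 40.3 TPM in controls, and Nr1d1 had 5.98 and 6.04 against 8.2 and 8.2. Arc had 0.556 and 0.55 TPM with ACBI1, against 1.12 and 1.47 TPM in controls, and Polg2 had 2.85 and 2.82 against 2.92 and 3.28. These 4 genes did not pass the test of ACBI1 over control on both scalings. Klf10 did (11.6 and 10.7 TPM with ACBI1, against 18.5 and 20.6 TPM in controls, -0.76 ± 0.10), as did Nlrp3 (262 and 248 TPM against 543 and 585 TPM, -1.14 ± 0.08).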
